A study of Homo sapiens with 8 samples.

Results

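The subunits of respiratory complexes II to V were followed in ribosome footprints of 293T cells, a transformed line derived from human embryonic kidney that expresses the large T antigen of SV40. Members were defined by a rule on gene symbols: SDHA to SDHD for complex II, symbols starting UQCR with CYC1 and MT-CYB for complex III, COX4 to COX8 with MT-CO1, MT-CO2 and MT-CO3 for complex IV, and ATP5 with MT-ATP6 and MT-ATP8 for complex V, with 1 pseudogene, ATP5F1EP2, left out. This gave 50 of the 17179 gene symbols in the libraries, 44 encoded in the nucleus and 6 in the mitochondrial genome. Complex II had 4 members, complex III 10, complex IV 14 and complex V 22. The subunits COX6B1 and COX7B and the tissue forms COX6A2, COX7A1, COX7B2 and COX8C did not appear under these symbols among the counted features. The sums for complex IV therefore leave them out.

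The libraries fell into 4 groups of 2. The first held cells given shNBD1, a non-cleaving shRNA (short hairpin RNA), and the second cells given the shRNA control. The third held cells given miRNA inhibitors, and the fourth the matching inhibitor control. Each treatment was compared with its own control. All groups were grown in the same medium and lysed with cycloheximide, a drug that stalls cytosolic ribosomes in elongation. How far mitochondrial ribosomes were held in place was not tested. The labels name neither the miRNAs inhibited nor a dose or a time, and they do not tell whether the replicates are separate cultures. The p-values therefore reflect the spread between these libraries alone, which may be technical. The series examined translation under both treatments. Without RNA libraries beside the footprints, a difference can lie in the amount of an mRNA, in its translation or in both.

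Complex II oxidises succinate in the citric acid cycle and passes the electrons to ubiquinone. Complex III passes them on to cytochrome c and complex IV to oxygen, and both pump protons across the inner mitochondrial membrane. Complex V, the ATP synthase, lets the protons back through its membrane sector, Fo, and makes ATP in its catalytic head, F1. Complexes III, IV and V are built from proteins of both genomes: the mitochondrial genes are translated by mitochondrial ribosomes and the nuclear genes by cytosolic ribosomes, while all subunits of complex II come from the nucleus.

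Library totals ranged from 11218980 to 19854218 counts. Levels are given as CPM, counts scaled to a common library size after TMM normalization, and 49 of the 50 members had reads in all 8 libraries and passed the filter on low counts. The exception was COX4I2, the lung form of subunit 4, with 1 count in all, when 3 counts, the limit that a count of 0 allows, would correspond to between 0.153 and 0.284 CPM in a library (counting error only). The spread between replicates was uneven. The SD between replicates on the log2 scale, pooled over the members, was 0.15 for shNBD1 and 0.0706 for the shRNA control. It was 0.131 for the miRNA inhibitors and 0.195 for the inhibitor control. The members include COX6B2, with only 12 and 4 counts in the shNBD1 libraries. Over all genes tested the SD was 0.187 for shNBD1, 0.187 for the shRNA control, 0.246 for the inhibitors and 0.215 for their control. Among markers of the HEK293 line, INA, LIN28B, HOXA10, EYA1, PAX2 and NEFM had reads in every library, and NEFL had none. Of 23 markers of other cells, 11 passed the filter. PTPRC, CD3E and ALB had at most 2 counts in a library, HBB at most 6, and ACTA2, COL1A1 and CD68 were the most abundant. The sum of the 23 was 444 ± 3.72 CPM with shNBD1 and 393 ± 22.6 CPM for the shRNA control; it was 496 ± 38.3 CPM with the inhibitors and 578 ± 3.22 CPM in the inhibitor control (SD, n = 2 each). The part of these markers in the results below was not tested.

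With shNBD1, footprints of 11 of the 49 tested members fell and none rose (22.4% called, against 18.3% of the 13306 genes tested in either direction, 9.18% higher and 9.15% lower; edgeR's quasi-likelihood test, adjusted p under 0.05). The 11 were ATP5MC3, ATP5MPL, MT-ATP6, ATP5MGL, ATP5PD, ATP5MG, ATP5MC2, COX7C, COX6A1, MT-CO1 and UQCRQ. Of these, 7 belong to complex V, 3 to complex IV, 1 to complex III and none to complex II. DESeq2, used as an alternative test, called 8 members, all lower, and 1697 of all genes. MT-CO1, UQCRQ and ATP5MGL were not called by it. The median log2 fold change was -0.13 over the 49 members and 0.0013 over all genes tested, with 32 members below 0 and 17 above. For 27 members the shNBD1 libraries were the 2 lowest of the 4, and for 10 the 2 highest, when 34.3% of all genes tested lay that low and 34.7% that high. At an unadjusted p under 0.05, 24 members differed. The calls rested on both libraries of each group: 2 members were called without shRNA control replicate 1, 2 without shRNA control replicate 2, 2 without shNBD1 replicate 1 and 1 without shNBD1 replicate 2, when the calls over all genes were 532, 716, 1022 and 619 in place of 2440.

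**Figure D1:**
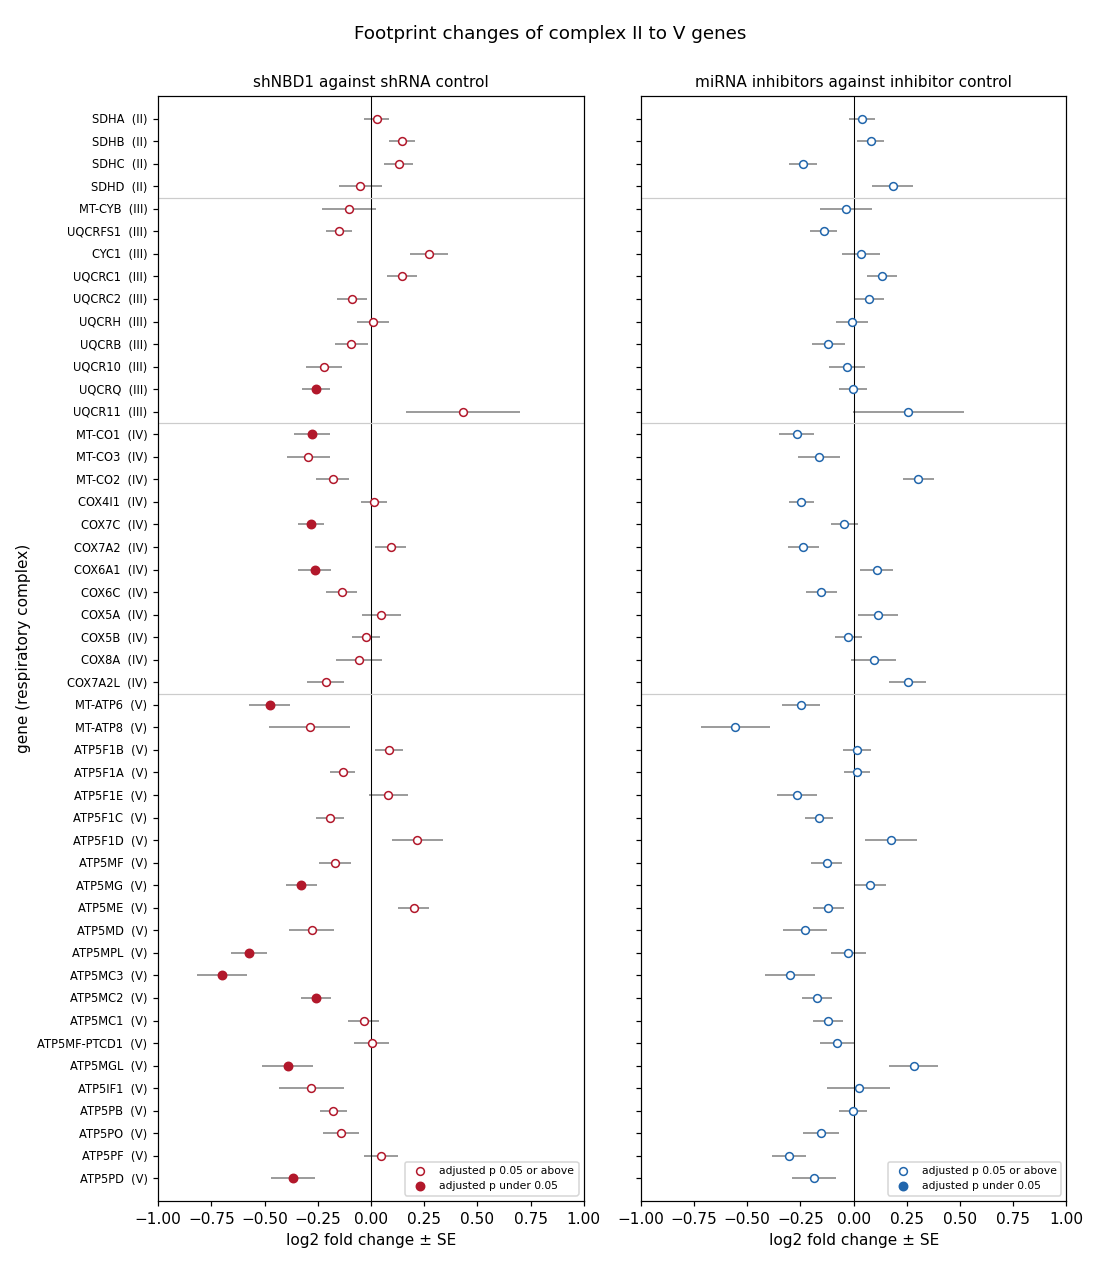
Log2 fold change (x axis, ± SE) of each member, by complex (in brackets), for shNBD1 over shRNA control on the left and miRNA inhibitors over inhibitor control on the right. Filled points have an adjusted p under 0.05; all 11 filled points lie left of 0 in the shNBD1 panel and no point is filled in the inhibitor panel, and COX4I2 and COX6B2, which had few counts, are not drawn.

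Complex V held both members with the largest falls. ATP5MC3 (chromosome 2, 175176258 to 175181710, GRCh38.p14) is 1 of 3 nuclear genes that encode the same mature c subunit behind different targeting sequences, and a ring of c subunits turns as protons pass. ATP5MC3 had 950.1 and 915.8 CPM in the shNBD1 libraries, against 1483.8 and 1545.2 CPM in the shRNA controls. Both shNBD1 libraries were far below both controls, with a log2 fold change of -0.70 ± 0.12 (SE, edgeR adjusted p = 0.00308). Without shNBD1 replicate 2 the fold change was -0.67 and the adjusted p 0.0512. ATP5MC2, the second c gene, had 200.9 and 197.2 CPM with shNBD1, against 241.5 and 235.4 CPM in the controls (log2 fold change -0.26 ± 0.07, edgeR adjusted p = 0.0281). ATP5MC1, the remaining c gene, had 153.7 and 140.2 CPM with shNBD1 and 151.3 and 149.7 CPM in the controls, and the groups overlapped. Summed over the 3 genes, the c subunit had 1279 ± 36.4 CPM with shNBD1 and 1904 ± 37.9 CPM in the controls (SD, n = 2 each). ATP5MC3 made up 0.73 of that sum with shNBD1 and 0.80 in the controls.

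ATP5MPL (chromosome 14, 103912288 to 103921529, GRCh38.p14), a small proteolipid bound to the membrane sector, had 34.7 and 31.4 CPM with shNBD1, against 48.1 and 50.4 CPM in the controls. Its log2 fold change was -0.57 ± 0.08 (edgeR adjusted p = 0.00166), and it was the only member of the 11 called without each of the 4 libraries in turn. ATP5MG, subunit g of the membrane sector, had 107.6 and 101.0 CPM with shNBD1, against 132.2 and 129.6 CPM in the controls (log2 fold change -0.33 ± 0.07, edgeR adjusted p = 0.0124). These groups did not overlap either. ATP5MGL, a near copy of ATP5MG on another chromosome, had 12.8 and 12.04 CPM with shNBD1, against 17.0 and 15.6 CPM in the controls (log2 fold change -0.39 ± 0.12, edgeR adjusted p = 0.0461). How reads that match both copies were counted is not given in the sources used here, so the ATP5MGL value is uncertain.

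ATP5PD, subunit d of the peripheral stalk that holds F1 against the turning ring, had 158.9 and 147.6 CPM with shNBD1, against 202.3 and 193.3 CPM in the controls (log2 fold change -0.37 ± 0.10, edgeR adjusted p = 0.0317). The other stalk genes were not called: ATP5PB had a log2 fold change of -0.18 ± 0.06, ATP5PO one of -0.14 ± 0.09 and ATP5PF one of 0.05 ± 0.08. None of the 5 genes of the F1 head was called. Their log2 fold changes ran between -0.19 ± 0.07 for ATP5F1C, the central shaft, and 0.22 ± 0.12 for ATP5F1D, and the sum over the head was 3797 ± 79.6 CPM with shNBD1 and 3876 ± 17.6 CPM in the controls. Whether the head and the membrane sector differ was not tested. ATP5IF1, the inhibitor of the head, had 99.4 and 106.8 CPM with shNBD1, against 128.6 and 121.8 CPM in the controls (log2 fold change -0.28 ± 0.15, edgeR adjusted p = 0.223).

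Over the 20 nuclear genes of complex V the sum was 6638 ± 161 CPM with shNBD1 and 7520 ± 32.2 CPM in the controls. Leaving out ATP5MC3, the sums were 5705 ± 137 CPM with shNBD1 and 6005 ± 11.2 CPM in the controls, so that gene alone made up most of the gap. Leaving out all 6 nuclear genes of the complex that were called, the sums were 5203 ± 118 CPM with shNBD1 and 5372 ± 0.629 CPM in the controls. The read-through gene ATP5MF-PTCD1 spans ATP5MF, and ATP5F1E has near copies among pseudogenes, so the split of reads among these is uncertain.

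**Figure D2:**
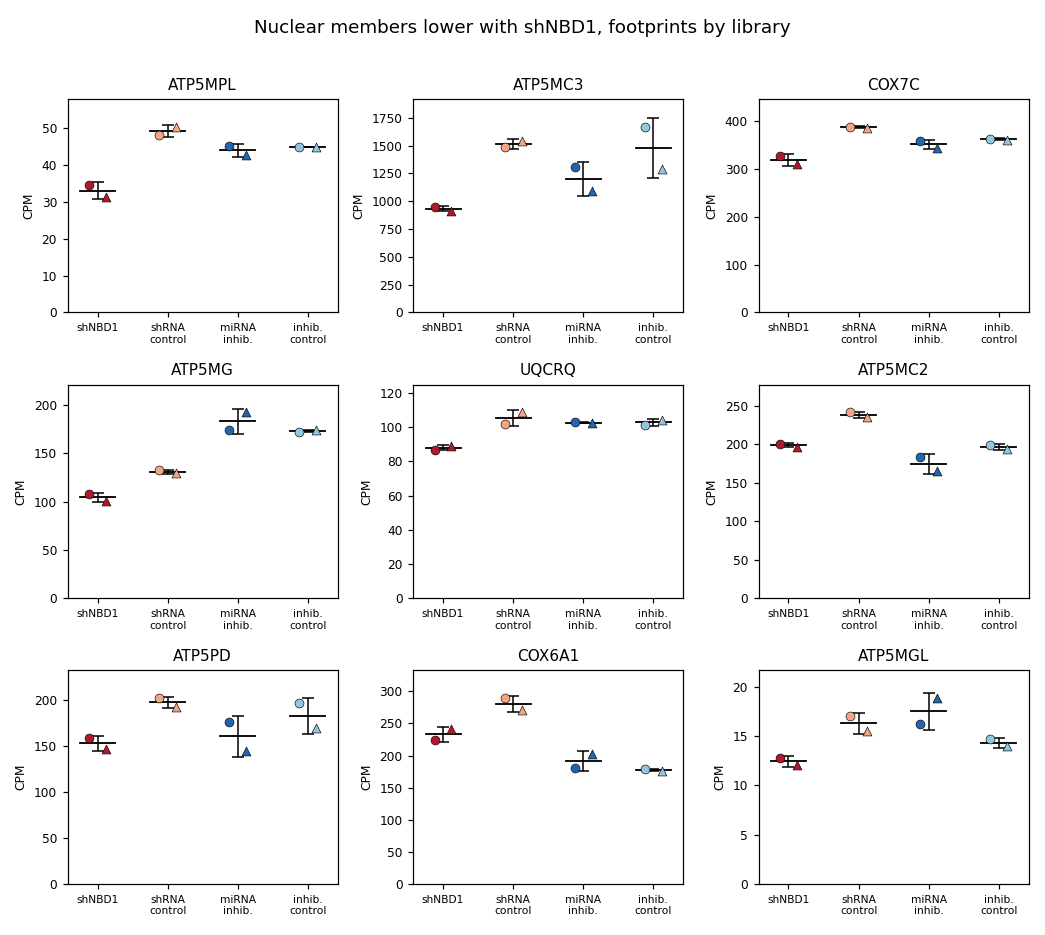
Footprints (CPM, y axis from 0) of the 9 nuclear members called lower with shNBD1, in each library of the 4 groups; circles are replicate 1, triangles replicate 2, the line is the mean and the bar the SD (n = 2). Both shNBD1 points lie below both shRNA control points in every panel, from 950.1 and 915.8 against 1483.8 and 1545.2 CPM for ATP5MC3 to 12.8 and 12.04 against 17.0 and 15.6 CPM for ATP5MGL.

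In complex IV, COX7C (chromosome 5, 86617941 to 86620962), a small structural subunit, had 326.5 and 309.3 CPM with shNBD1, against 388.0 and 385.5 CPM in the controls. Its log2 fold change was -0.28 ± 0.06 (edgeR adjusted p = 0.0122). COX6A1, the form of subunit 6A found in most tissues, had 224.6 and 241.6 CPM with shNBD1, against 289.0 and 271.1 CPM in the controls (log2 fold change -0.27 ± 0.08, edgeR adjusted p = 0.0361). Neither gene's groups overlapped. The other 8 tested nuclear members of the complex were not called. COX4I1, the form of subunit 4 in most tissues, had 358.0 and 352.6 CPM with shNBD1 and 349.4 and 353.8 CPM in the controls. COX6B2, the testis form of subunit 6B, had between 4 and 28 counts in a library and its fold change of 0.46 ± 0.72 on the log2 scale is too wide to read.

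In complex III, UQCRQ, a small nuclear subunit, had 86.9 and 89.0 CPM with shNBD1, against 102.0 and 108.5 CPM in the controls. Both shNBD1 libraries were lower (log2 fold change -0.26 ± 0.07, edgeR adjusted p = 0.0247). The 8 other nuclear members were not called. CYC1, cytochrome c1, had the smallest p of those above 0, with 159.9 and 169.5 CPM with shNBD1 and 136.9 and 135.9 CPM in the controls (log2 fold change 0.27 ± 0.09, edgeR adjusted p = 0.0606); it was picked out after its values were seen. The summed nuclear footprints of complex III were 1478 ± 20.3 CPM with shNBD1 and 1490 ± 4.21 CPM in the controls.

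No gene of complex II was called. SDHA, the flavoprotein that binds succinate, had 399.4 and 398.1 CPM with shNBD1, against 391.4 and 392.1 CPM in the controls (log2 fold change 0.03 ± 0.06). SDHB, the iron-sulfur subunit, had 201.0 and 196.2 CPM with shNBD1, against 177.8 and 181.4 CPM in the controls (log2 fold change 0.15 ± 0.06, edgeR adjusted p = 0.129). The membrane anchor SDHC had 217.9 and 205.6 CPM with shNBD1, against 189.6 and 197.5 CPM in the controls (log2 fold change 0.13 ± 0.07, edgeR adjusted p = 0.203). In these 3 genes both shNBD1 libraries lay above both controls, without passing the test, when 34.7% of all genes tested lay that high. The other anchor, SDHD, had 43.3 and 47.0 CPM with shNBD1 and 49.0 and 44.5 CPM in the controls, which overlapped. The 4 genes summed to 854 ± 10.4 CPM with shNBD1 and 812 ± 5.48 CPM in the controls.

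Of the 6 mitochondrially encoded members, 2 fell with shNBD1 (33.3%), when 9.15% of all genes tested were called lower. MT-ATP6 (mitochondrial genome, 8527 to 9207), subunit a, which forms the proton channel beside the c ring, had 19.98 and 19.73 CPM with shNBD1, against 28.1 and 27.2 CPM in the controls. Its log2 fold change was -0.48 ± 0.10 (edgeR adjusted p = 0.0082), and the adjusted p lay between 0.055 and 0.0972 when 1 library was left out. MT-CO1 (5904 to 7445), the catalytic core of complex IV, had 230.5 and 226.2 CPM with shNBD1, against 274.2 and 279.0 CPM in the controls. Its log2 fold change was -0.28 ± 0.08 (edgeR adjusted p = 0.0439), and DESeq2 did not call it (DESeq2 adjusted p = 0.0515). The other 4 were not called. MT-CO3, a core subunit of complex IV, had 87.7 and 89.4 CPM with shNBD1, against 113.6 and 103.5 CPM in the controls (log2 fold change -0.29 ± 0.10, edgeR adjusted p = 0.0695). MT-CO2, which takes electrons from cytochrome c, had 57.9 and 54.0 CPM with shNBD1, against 66.2 and 60.4 CPM in the controls (log2 fold change -0.18 ± 0.08, edgeR adjusted p = 0.133). For both of these the shNBD1 libraries were the lower ones without overlap. That held for 5 of the 6 members, when 34.3% of all genes tested lay that low. MT-CYB, cytochrome b, had 97.8 and 92.3 CPM with shNBD1 and 102.5 and 101.7 CPM in the controls (log2 fold change -0.10 ± 0.13). MT-ATP8, a small Fo subunit, had 13.3 and 15.8 CPM with shNBD1 and 15.3 and 20.5 CPM in the controls, which overlapped. MT-ATP8 and MT-ATP6 share 46 bases, so reads there could belong to either gene, and nuclear copies of mitochondrial genes may share reads with any of the 6. The 6 summed to 502 ± 6.89 CPM with shNBD1 and 596 ± 5.29 CPM in the controls, and relative to the nuclear members the sum was 0.0466 ± 0.0003 with shNBD1 and 0.0508 ± 0.00066 in the controls (SD, n = 2 each).

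**Figure D3:**
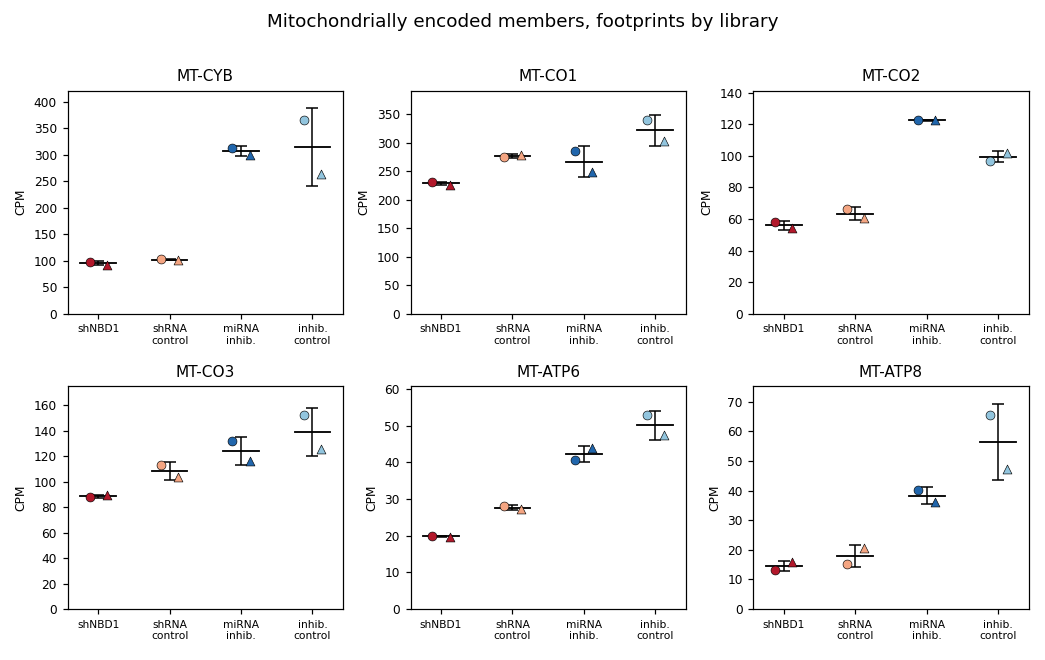
Footprints (CPM, y axis from 0) of the 6 mitochondrially encoded members in each library of the 4 groups; circles are replicate 1, triangles replicate 2, the line is the mean and the bar the SD (n = 2). MT-CYB is at 92.3 to 102.5 CPM in the shRNA arm and at 262.5 to 365.8 CPM in the inhibitor arm, and MT-CO2 at 122.4 and 122.8 CPM with the inhibitors is above its control at 96.9 and 101.8 CPM.

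Genes that assemble or express these complexes were counted beside them, from lists written with earlier results of these data known. Of 44 tested assembly genes of complexes II to V, 7 fell with shNBD1 and none rose, with a median log2 fold change of -0.10. That is 15.9% called lower, against 9.15% of all genes tested, and 15.9% in either direction, against 18.3%. TMEM70, which helps insert the c ring, had 31.3 ± 0.0572 CPM with shNBD1 and 68.9 ± 3.12 CPM in the controls (log2 fold change -1.14 ± 0.08, edgeR adjusted p = 2.09e-05). COX11, which delivers copper to MT-CO1, had 34.1 ± 0.71 CPM with shNBD1 and 49.9 ± 1.93 CPM in the controls (log2 fold change -0.55 ± 0.10, edgeR adjusted p = 0.0044). COA6, a copper chaperone for MT-CO2, had a log2 fold change of -0.41 ± 0.08 and NDUFA4, counted here with assembly and now known as a subunit of complex IV, one of -0.38 ± 0.07 (edgeR adjusted p = 0.007 and 0.00618). Of 33 tested genes of mitochondrial gene expression 3 fell and 1 rose: LRPPRC, which binds mitochondrial mRNAs, had a log2 fold change of -0.23 ± 0.07, MTERF3 one of -0.46 ± 0.11, MTIF3 one of -0.38 ± 0.11 and the helicase TWNK one of 0.51 ± 0.14. The share called was 12.1%, with 9.1% lower and 3.0% higher. Of all genes tested 9.15% were lower and 9.18% higher. Of 9 regulators of respiratory genes, YY1 (-0.25 ± 0.07) and PPARGC1A (-0.69 ± 0.20, with means of 3.27 CPM under shNBD1 and 5.25 CPM without it) fell. Of 14 mitochondrial chaperones and proteases, PHB2 fell (-0.46 ± 0.07) and TRAP1 rose (0.37 ± 0.09). For complex I, 4 of 36 nuclear genes fell and 1 rose (median -0.04), and 3 of 7 mitochondrial genes fell (MT-ND2, MT-ND1 and MT-ND3, median -0.07). The shares called were 22.2% of the regulators, 14.3% of the chaperones and proteases, 13.9% of the nuclear genes of complex I and 42.9% of its mitochondrial genes.

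Promoters of the nuclear members were taken from RefSeq (GRCh38.p14), as 250 bases before to 50 after the start that its table gives for each gene, which for some members, such as ATP5PF, ATP5MC2 and COX7A2L, lies inside the limits of the gene, and 33 of the 44 were in the table. The binding motifs of factors known for respiratory genes were searched on both strands. The NRF1 motif, GCGCA followed by any base and GCGC, was in 10 of the 33 windows (30.3%). It was in 6.3% of all 27305 promoters and in 8.6% of the 15843 promoters of protein-coding genes. The ETS motif bound by GABP, CCGGAAG, was in 14 (42.4%, against 10.7% of all and 14.2% of protein-coding promoters). The YY1 motif, AAGATGGC, was in 5 (15.2%, against 3.0% and 3.9%). CCAAT, the NF-Y motif, was in 13 (39.4%, against 35.7% and 36.4%). At least 1 of the first 3 was in 22 windows, which is 66.7%, against 17.9% of all promoters. The matching share of protein-coding promoters was not computed. Of the 7 members called lower with shNBD1 that had a promoter in the table, 4 held CCGGAAG, 1 held the NRF1 motif and none held AAGATGGC. A match is only a run of letters, and no binding was measured. The 100 bases before that start are shown 5′ to 3′ on each gene's strand for 3 members called lower with shNBD1 and 3 not called, chosen with their values known to show each of the first 3 motifs, in capitals. ATP5MPL (chr14:103921530-103921629, minus strand), COX6A1 (chr12:120438013-120438112, plus strand) and UQCRQ (chr5:132866542-132866641, plus strand) were called lower. SDHA (chr5:218220-218319, plus strand), UQCR11 (chr19:1605463-1605562, minus strand) and ATP5PF (chr21:25735055-25735154, minus strand, inside the limits of the gene) were not called.
ATP5MPL: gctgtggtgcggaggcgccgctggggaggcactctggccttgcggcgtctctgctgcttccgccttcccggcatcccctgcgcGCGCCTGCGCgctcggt
COX6A1: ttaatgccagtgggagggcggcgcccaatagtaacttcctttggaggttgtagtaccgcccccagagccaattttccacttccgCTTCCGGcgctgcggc
UQCRQ: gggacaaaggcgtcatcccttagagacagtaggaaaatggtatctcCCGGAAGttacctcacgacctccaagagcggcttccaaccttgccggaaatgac
SDHA: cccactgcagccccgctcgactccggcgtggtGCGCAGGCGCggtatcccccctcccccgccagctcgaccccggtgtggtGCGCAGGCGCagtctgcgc
UQCR11: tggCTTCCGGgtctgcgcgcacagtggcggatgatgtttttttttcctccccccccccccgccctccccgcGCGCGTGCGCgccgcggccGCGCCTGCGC
ATP5PF: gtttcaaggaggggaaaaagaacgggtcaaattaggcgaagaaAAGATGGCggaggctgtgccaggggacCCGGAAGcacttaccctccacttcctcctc
Motifs on the opposite strand read as their reverse complement, as CTTCCGG in COX6A1. SDHA and UQCR11 each held the NRF1 motif at 2 places, and ATP5PF held the YY1 and ETS motifs together.

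With the miRNA inhibitors no member was called in either direction, when 0.120% of the 13306 genes tested were called, 0.0376% higher and 0.0827% lower (edgeR's quasi-likelihood test; 16 members had an unadjusted p under 0.05, and DESeq2 called 0). The median log2 fold change was -0.04 over the 49 members, with 31 below 0 and 18 above. The inhibitor libraries lay below both controls for 17 members and above for 9, when 20.3% of all genes tested lay below and 20.5% above. Without inhibitor control replicate 2 the count was 6 members, and without inhibitor replicate 1 it was 5. None of the genes of complex I, assembly, mitochondrial gene expression, regulation or chaperones in the lists was called.

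MT-CO2 had the largest value above 0, with 122.4 and 122.8 CPM with the inhibitors, against 96.9 and 101.8 CPM in the inhibitor control (log2 fold change 0.30 ± 0.07, edgeR adjusted p = 0.121). It was the only mitochondrially encoded member above 0. MT-CO1 had 285.9 and 247.6 CPM with the inhibitors, against 340.2 and 302.7 CPM in the control (log2 fold change -0.27 ± 0.08, edgeR adjusted p = 0.176). It was called without inhibitor control replicate 2 (-0.35, edgeR adjusted p = 0.0487) and without inhibitor replicate 1 (-0.39, edgeR adjusted p = 0.024), but not without either of the other libraries, with -0.19 for inhibitor control replicate 1 and -0.18 for inhibitor replicate 2. The ratio of MT-CO2 to MT-CO1 was therefore 0.462 ± 0.048 with the inhibitors and 0.311 ± 0.0366 in their control, and in the other arm 0.245 ± 0.00885 with shNBD1 and 0.229 ± 0.0177 in the shRNA control. MT-ATP8 had the most negative value, with 40.3 and 36.3 CPM with the inhibitors, against 65.5 and 47.4 CPM in the control (log2 fold change -0.56 ± 0.16, edgeR adjusted p = 0.154). It was -0.31 without inhibitor control replicate 1, and -0.77 and called without inhibitor control replicate 2 (edgeR adjusted p = 0.0236). MT-ATP6 had 40.8 and 44.0 CPM with the inhibitors, against 53.0 and 47.4 CPM in the control, and the groups did not overlap. MT-CO3 had 132.0 and 116.2 CPM with the inhibitors and 152.4 and 125.9 CPM in the control, and MT-CYB 312.7 and 299.7 CPM with the inhibitors and 365.8 and 262.5 CPM in the control. In both, the groups overlapped, since inhibitor control replicate 1 was far above replicate 2. Without inhibitor control replicate 1 the MT-CYB log2 fold change was 0.22, against -0.04 with it.

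Among the nuclear members with at least 50 counts on average, log2 fold changes with the inhibitors lay between -0.30 and 0.28. ATP5MC3 had 1311.6 and 1095.5 CPM with the inhibitors and 1670.8 and 1289.5 CPM in the control, a log2 fold change of -0.30 ± 0.12 (edgeR adjusted p = 0.244), and the groups overlapped. ATP5MPL had 45.3 and 42.7 CPM with the inhibitors and 44.8 and 44.9 CPM in the control, a log2 fold change of -0.03 ± 0.08. The complex V nuclear sum was 6966 ± 177 CPM with the inhibitors and 7497 ± 283 CPM in their control. SDHA had 384.9 and 394.1 CPM with the inhibitors and 377.1 and 380.7 CPM in the control, and SDHB had 156.0 and 153.8 CPM with the inhibitors and 146.6 and 146.5 CPM in the control. For both genes the inhibitor libraries were the higher ones, and neither gene passed the test. SDHD had 61.8 and 70.0 CPM with the inhibitors and 54.1 and 61.8 CPM in the control.

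**Figure D4:**
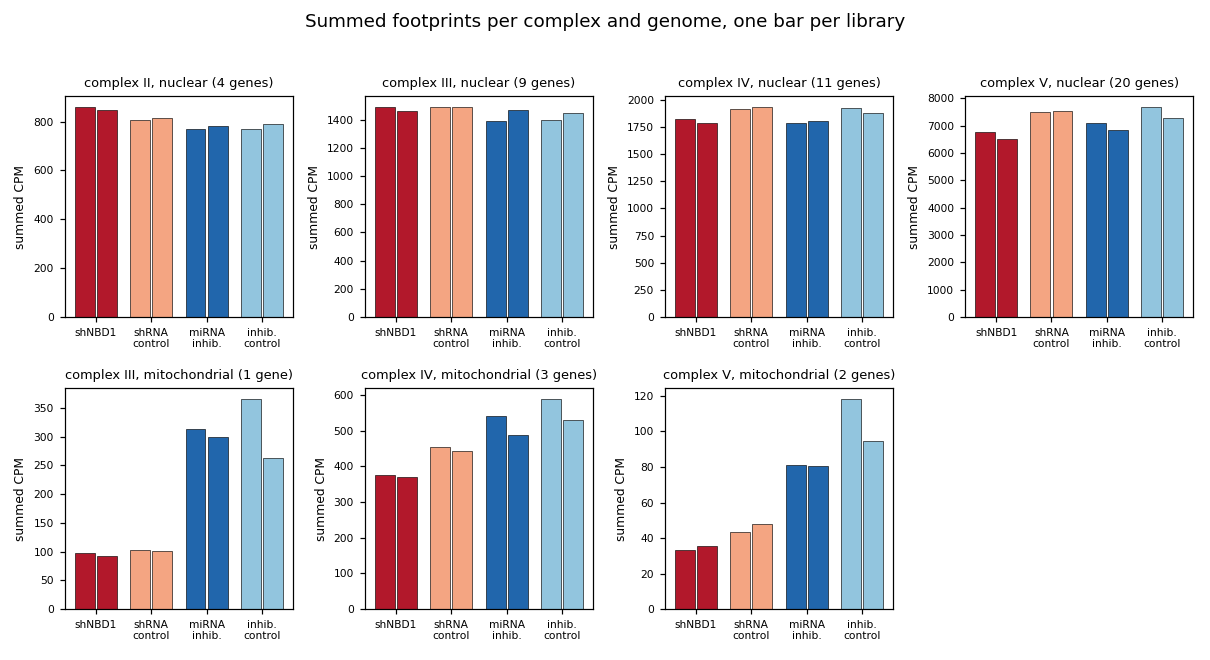
Summed footprints (CPM, y axis from 0) of the members of each complex by genome, with 1 bar for each library, replicate 1 left of replicate 2, in the 4 groups. The nuclear sum of complex V is 6638 CPM on average with shNBD1 and 7520 CPM in the shRNA control, and the mitochondrial sums of complexes III, IV and V are all lower in the shRNA arm than in the inhibitor arm.

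The effect of shNBD1 and that of the inhibitors were compared with a test of the difference itself, the shNBD1 effect minus the inhibitor effect. Of 49 members, 6 differed, 5 of them below 0 and 1 above, when 7.44% of all genes tested were called, 3.96% below 0 and 3.48% above. The 2 effects had a correlation across the 49 members of r = 0.15 (Spearman's rho 0.16), and 30 had the same sign in both. Over the 48 members with at least 50 counts on average, r was 0.24 and rho 0.23. These values are given as a description, since the members share their libraries. For ATP5MPL the difference was -0.55 ± 0.12 (edgeR adjusted p = 0.0213). For ATP5MG, at 173.8 and 192.2 CPM with the inhibitors and 172.5 and 174.0 CPM in their control, it was -0.41 ± 0.10 (edgeR adjusted p = 0.0392). For its copy ATP5MGL, at 16.2 and 18.8 CPM with the inhibitors and 14.7 and 13.9 CPM in their control, it was -0.67 ± 0.17 (edgeR adjusted p = 0.0365). These 3 genes were lower with shNBD1 and had inhibitor log2 fold changes of -0.03, 0.08 and 0.28.

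MT-CO2 differed by -0.48 ± 0.11 (edgeR adjusted p = 0.0237), being below its control with shNBD1 and above it with the inhibitors. COX7A2L, which joins complexes III and IV into supercomplexes, had 35.4 and 34.7 CPM with shNBD1 and 42.0 and 39.3 CPM in the shRNA control. It had 43.9 and 44.3 CPM with the inhibitors and 34.9 and 39.1 CPM in their control, and the effects differed by -0.47 ± 0.12 (edgeR adjusted p = 0.0468). SDHC had 168.9 and 163.4 CPM with the inhibitors and 192.1 and 200.2 CPM in their control, so its effect ran the opposite way to that of shNBD1, with a difference of 0.37 ± 0.09 (edgeR adjusted p = 0.0412). Neither effect passed its own test in MT-CO2, COX7A2L or SDHC. None of the 6 differences was called when any of the 4 libraries of the shRNA arm was left out, and 3 members were called without inhibitor replicate 2. The difference for ATP5MC3 was -0.40 ± 0.16 (edgeR adjusted p = 0.162), so its fall with shNBD1 was not shown to differ from its value with the inhibitors.

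The shRNA control and the inhibitor control were set against each other to show how the arms stood without either treatment. The arms differ in reagent, and any other difference between them cannot be told apart from it. Of 49 members, 16 were lower in the shRNA control and 8 were higher, together 49.0%, when 27.1% of all genes tested were called. Of the 6 mitochondrially encoded members, 5 were lower in the shRNA control, and all 6 had both libraries below both of the inhibitor control, when 33.4% of all genes tested lay that way and 33.7% the other. The median log2 fold change was -0.75 over these 6 and 0.03 over the 43 tested nuclear members. Without shRNA control replicate 1 the count was 11 members, and without shRNA control replicate 2 it was 12.

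MT-CYB had 102.5 and 101.7 CPM in the shRNA control, against 365.8 and 262.5 CPM in the inhibitor control (log2 fold change -1.62 ± 0.13, edgeR adjusted p = 3.6e-05). MT-ATP8 had 15.3 and 20.5 CPM in the shRNA control, against 65.5 and 47.4 CPM in the inhibitor control (log2 fold change -1.67 ± 0.17, edgeR adjusted p = 0.000163). MT-ATP6 had a log2 fold change of -0.86 ± 0.09, MT-CO2 of -0.65 ± 0.08 and MT-CO3 of -0.36 ± 0.10 (edgeR adjusted p = 0.000175, 0.000291 and 0.0242), while MT-CO1 had -0.22 ± 0.08 and was not called (edgeR adjusted p = 0.077). The mitochondrial genes thus spanned a wide range of differences between the arms, and MT-CO3 lost its call without either shRNA control library and without inhibitor control replicate 1 (adjusted p between 0.0803 and 0.183 in edgeR). MT-CYB, MT-ATP8, MT-ATP6 and MT-CO2 were called in each of the 12 alternatives tried.

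Per kilobase of coding sequence, levels of the mitochondrial genes could be set beside each other within limits. Reads in the 46 bases shared by MT-ATP8 and MT-ATP6 could belong to either gene, and nuclear copies may share reads with any of these genes. With shNBD1, MT-CO1 was the highest at 148 ± 2 CPM per kilobase, followed by MT-CO3 at 113 ± 1.56, MT-CYB at 83.3 ± 3.37, MT-CO2 at 81.8 ± 4.06, MT-ATP8 at 70.3 ± 8.5 and MT-ATP6 at 29.2 ± 0.258. There MT-CYB and MT-CO2 lay within their spread of each other, as did MT-CO2 and MT-ATP8. In the shRNA control the same measure was 179 ± 2.22 for MT-CO1, 138 ± 9.03 for MT-CO3, 92.6 ± 6 for MT-CO2, 89.5 ± 0.447 for MT-CYB, 86.5 ± 17.5 for MT-ATP8 and 40.6 ± 0.95 for MT-ATP6. MT-CO2, MT-CYB and MT-ATP8 thus lay within their spread of each other in the control. In the inhibitor arm the order was another one: MT-CYB led with the inhibitors at 268 ± 8.06 CPM per kilobase, before MT-ATP8 at 185 ± 13.5, MT-CO2 at 179 ± 0.454, MT-CO1 at 173 ± 17.5, MT-CO3 at 158 ± 14.3 and MT-ATP6 at 62.2 ± 3.34. MT-ATP8, MT-CO2 and MT-CO1 overlapped within their spread, as did MT-CO3 with MT-CO1 and with MT-ATP8. In the inhibitor control MT-CYB was at 275 ± 64 and MT-ATP8 at 273 ± 62, and these did not differ beyond their spread. MT-CO1 was at 209 ± 17.2, MT-CO3 at 178 ± 23.9, MT-CO2 at 145 ± 5.13 and MT-ATP6 at 73.7 ± 5.8 CPM per kilobase there (SD, n = 2 each). There the spread of MT-CO1 reached that of MT-CYB, of MT-ATP8 and of MT-CO3. MT-ATP6 was the lowest in all 4 groups.

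**Figure D5:**
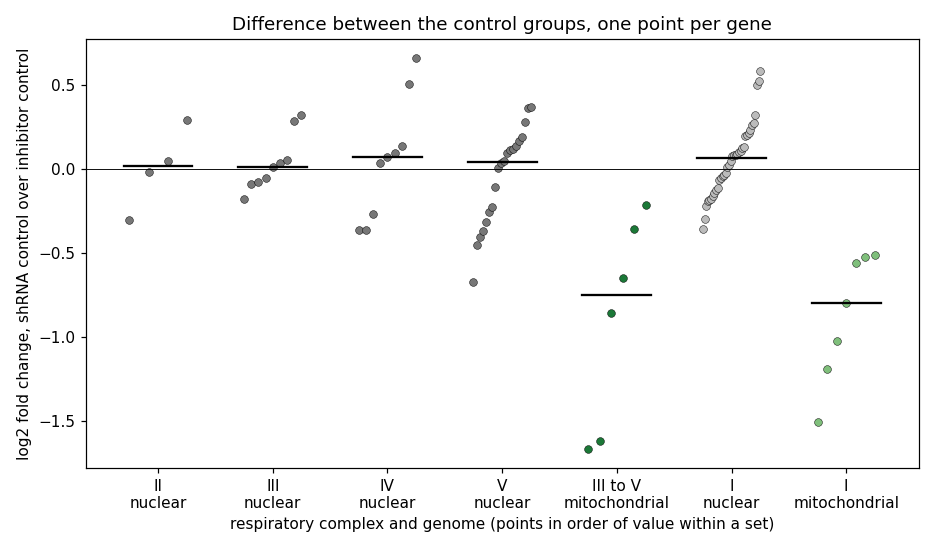
Log2 fold change of shRNA control over inhibitor control (y axis) for single genes, grouped by complex and genome, with a line at each group's median; points within a group are in order of value, and COX4I2 and COX6B2, which had few counts, are not drawn. The 6 mitochondrial members run from -1.67 to -0.22, as do the 7 mitochondrial genes of complex I from -1.51 to -0.51, while the nuclear members run from -0.67 to 0.66.

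The 7 mitochondrial genes of complex I were all lower in the shRNA control too, with a median log2 fold change of -0.80. Of all 13 mitochondrially encoded genes 12 were called, all lower (92.3%), when 13.6% of all genes tested were called lower. The 13 summed to 910 ± 11.7 CPM in the shRNA control and 1609 ± 199 CPM in the inhibitor control (SD, n = 2 each). Of 36 nuclear genes of complex I, 4 were higher in the shRNA control and 2 lower. That is 16.7% called, against 27.1% of all genes tested. Scaling the libraries on nuclear genes alone left the count of called members at 24. The 13 mitochondrial genes summed to only 779 to 1750 CPM in a library, so this scaling could hardly change the count.

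Among the nuclear members the differences between the controls ran both ways within a complex. COX6A1 had 289.0 and 271.1 CPM in the shRNA control, against 178.8 and 176.2 CPM in the inhibitor control (log2 fold change 0.66 ± 0.08, edgeR adjusted p = 0.000291). COX5A, a subunit of complex IV on the matrix side, had 181.2 and 193.6 CPM in the shRNA control, against 145.0 and 118.7 CPM in the inhibitor control (log2 fold change 0.51 ± 0.09, edgeR adjusted p = 0.00323). Both were higher in the shRNA control without overlap. ATP5F1A, the alpha subunit of F1, and ATP5F1C were higher in the shRNA control by 0.36 ± 0.06 and 0.37 ± 0.07 on the log2 scale (edgeR adjusted p = 0.00199 and 0.00291). ATP5ME, subunit e of the membrane sector, had 101.3 and 99.0 CPM in the shRNA control, against 165.3 and 154.5 CPM in the inhibitor control. It was the nuclear member of smallest p (log2 fold change -0.67 ± 0.07, edgeR adjusted p = 0.000207). The summed nuclear footprints of complex V averaged 7520 ± 32.2 CPM for the shRNA control and 7497 ± 283 CPM for the inhibitor control, a gap within the spread between libraries.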

How the data were processed

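For each library the authors deposited raw counts of footprint reads per feature. The build was GRCh38 and the tools named are cutadapt and Bowtie, per the submitters' processing notes; how multi-mapping reads were counted, and with what tool, is not given in the sources used here. Unlisted features were taken as 0, and 18037 features were summed to 17179 symbols. Per the labels' protocols, a modified mammalian ribosome profiling kit was used.

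A filter on low counts (filterByExpr, minimum 10 in a library and 15 in all) and TMM scaling came before edgeR 4.0.16 (limma 3.58.1, R 4.3.3), whose quasi-likelihood test used 4 group means over all 8 libraries, 4 residual degrees of freedom, common biological coefficient of variation 0.0753, Benjamini-Hochberg over 13306 genes, threshold 0.05. SEs are those the test implies. Alternatives included DESeq2 1.42.0, other filters and scalings, a replicate block and leaving out libraries. The steps were tested on simulated counts, with 50 genes altered at each effect size. Where the simulated effect was 1.25-fold, 16% of these genes were found in the shNBD1 comparison and 12% in the inhibitor comparison. An effect of 1.5-fold was found for 62% and 76% of genes, and one of 2-fold for 94% and 100%, in the same order. Effects of 1.25-fold were thus mostly missed, so a member not called is not shown to be unchanged.

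Members and lists were chosen with earlier results of these data known. Named with values were the mitochondrially encoded members, SDHA to SDHD, members called in a treatment comparison or in the difference, 4 of smallest p in each direction between the controls and, of each list, up to 4 called genes of smallest p; CYC1, ATP5IF1 and other members of the stalk and head were added after their values were seen. Part of the rule that needs levels per codon of nuclear genes was not used, since no coding lengths were at hand. All 50 members matched RefSeq genes (GRCh38.p14), 42 by symbol and 8 by a synonym or ID.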

Additional observations from a re-analysis of the deposited data

Results flagged for a closer look

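In 6 members the test of the difference between the effect of shNBD1 and the effect of the miRNA inhibitors passed the threshold, and these are singled out for a closer look. On the log2 scale, as the shNBD1 effect minus the inhibitor effect, the difference was -0.67 for ATP5MGL, -0.55 for ATP5MPL, -0.48 for MT-CO2, -0.47 for COX7A2L, -0.41 for ATP5MG and 0.37 for SDHC. Leaving out 1 library at a time, ATP5MPL and MT-CO2 were called in 4 of 8 cases each, SDHC in 3, ATP5MGL in 2 and ATP5MG and COX7A2L in 1 each. ATP5MGL and ATP5MG are near copies, so they may not be separate observations.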

How the results depend on the processing

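Medians and gene values were recomputed under each alternative: of 634 values for named genes, 524 kept their direction and side of the threshold, 87 lost and 15 gained a call, and 8 changed sign; of 106 medians, 12 moved by more than the spread. Members called with shNBD1 were 11, and 32 (8 higher, 24 lower; 5314 in place of 2440 of all genes) in a fit of only the libraries of the comparison, and 1 to 2 with a library left out. With the inhibitors they were 0, and 0 to 6 with a library left out, and 6 without both inhibitor control replicate 1 and inhibitor replicate 2, chosen after seeing the data. The difference gave 6, and 0 to 8 with a library left out, 19 without both of those libraries and 2 with DESeq2. Between the controls they were 24, and 11 to 25 with a library left out. With the replicate block the counts were 16 (2 higher, 14 lower), 5, 11 and 25. Replicate numbers were not taken as pairs: with 2 pairs a comparison, same-numbered deviations correlated at 0.041 for shNBD1 and its control and 0.608 for the inhibitors and theirs. Over all genes the block gave 675 in place of 16 for the inhibitors and 1868 in place of 990 for the difference; for the inhibitors no filter gave 179, DESeq2 118, the 4 libraries alone 0, and leaving out a library 4 to 930. Leaving out a library gave 532 to 1022 for shNBD1, 187 to 1135 for the difference and 1077 to 3197 in place of 3611 for the controls, and DESeq2 gave 2389 there. SDHD with shNBD1 changed sign, between -0.115 and 0.025 with a library left out, as did SDHC between the controls, between -0.053 and 0.011, and MT-CYB with the inhibitors, between -0.258 and 0.217. Without both libraries, MT-CYB was 0.251, MT-CO3 0.067 and SDHD 0.000 with the inhibitors, where leaving out 1 library gave -0.295 to -0.023 for MT-CO3 and 0.084 to 0.279 for SDHD. The causes were not tested. Levels per codon of nuclear members were planned and not run.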
